A study of Mus musculus with 15 samples.

Results

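Bile acids and oxysterols (oxidised forms of cholesterol) are signals as well as metabolites, and 10 mouse genes that carry, sense or make them are described here in the brain after an experimental stroke. They were taken by gene symbol from the 18931 genes of the deposited table. They are the transporter Slco1a4, the receptors Gpbar1, Nr1h4, S1pr2, Nr1h2 and Nr1h3, and the sterol hydroxylases Cyp46a1, Cyp27a1, Cyp7b1 and Ch25h. Messenger RNA was sequenced from brains of Kunming mice, an outbred stock, in 15 libraries of 5 groups of 3. The groups were a sham operation, middle cerebral artery occlusion (MCAO) with vehicle, and occlusion with treatments labelled JA, UA and JU. The sample titles carry the name of the occlusion model in all groups, sham included. The study title names jasminoidin and ursodeoxycholic acid, a bile acid, and asks whether they act in synergy. The 3 abbreviations are not written out in the labels, so JU is set against JA and UA as their combination without the labels saying so. The sources used here do not give age, doses, times or brain region. Nor do the labels say whether each library is a separate animal, so the p-values reflect variation among these libraries, which could be technical.

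As background, the brain makes its own cholesterol and clears much of it as an oxysterol that neurons form and that crosses the blood-brain barrier. Oxysterols activate the liver X receptors Nr1h2 and Nr1h3, which turn on genes of cholesterol efflux, and a dihydroxylated oxysterol made by Ch25h and Cyp7b1 in sequence attracts immune cells through the receptor Gpr183. Bile acids signal through the membrane receptors Gpbar1 and S1pr2 and the nuclear receptor Nr1h4, and transporters of the Slco family at the barrier carry bile acids and steroid conjugates.

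Ch25h and S1pr2 were the members whose upstream windows hold a cAMP response element, among the 9 members with an entry. The bases upstream of their RefSeq starts (GRCm38.p6) are shown, with bases that the gene annotation gives as untranslated left off. Capitals mark a palindromic cAMP response element, TGACGTCA.
Ch25h, 234 bases at chr19:34475165-34475398, minus strand: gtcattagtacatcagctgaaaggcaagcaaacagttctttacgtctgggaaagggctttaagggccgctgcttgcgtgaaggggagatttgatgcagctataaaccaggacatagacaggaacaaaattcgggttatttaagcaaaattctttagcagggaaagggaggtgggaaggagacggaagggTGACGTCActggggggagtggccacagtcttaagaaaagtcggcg
S1pr2, 250 bases at chr9:20976794-20977043, minus strand: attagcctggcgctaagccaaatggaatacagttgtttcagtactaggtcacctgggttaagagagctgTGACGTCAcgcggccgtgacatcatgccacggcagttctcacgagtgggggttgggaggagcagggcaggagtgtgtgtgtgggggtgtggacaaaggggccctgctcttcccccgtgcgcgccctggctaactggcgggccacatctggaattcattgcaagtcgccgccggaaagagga
The element begins 61 bases before the RefSeq start of Ch25h and 181 bases before that of S1pr2. It was found in the 250 upstream bases of 2 of the 9 members with an entry (Cyp7b1 had none) and in 1.55% of 32851 such windows of all genes. Both windows were chosen for printing after the matches had been seen, and 17 motifs were searched on both strands. A TATA box (TATAAA) was also found upstream of Ch25h, and in 12.37% of all windows. The PU.1 box GGAAGT was found upstream of Gpbar1 and Nr1h2 (19.74% of all windows). A CCAAT box stood upstream of Slco1a4, Cyp46a1 and Cyp27a1 (33.85%) and a GC box, GGGCGG, upstream of Cyp46a1 and Cyp27a1 (32.74%). No member window held any of the other 12. These were the AP-1 site (TGANTCA), the gamma-activated site (TTCNNNGAA), the C/EBP palindrome (TTGCGCAA), the short sterol regulatory element (TCACNCCAC) and, by name, the longer sterol regulatory element, the interferon-stimulated response element core, the longer PU.1 box, a strict and a loose NF-kB site, the LXR direct repeat, a looser direct repeat and the NRF1 site. The short sterol element overlaps the longer one, and the PU.1 boxes and the NF-kB sites overlap each other. These matches describe letters only.

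The libraries held 18346180 to 20447465 counts each. A floor of detection of 3 counts equals 0.1467 to 0.1635 CPM (counts scaled to library size). Levels below are CPM scaled by TMM factors unless FPKM is named. JU replicate 1 stood apart from JU replicates 2 and 3, and results that it affects are given with and without it. It also affects contrasts that do not include JU, because the edgeR fit estimates the spread of each gene over all 15 libraries. Its 10 microglia markers summed to 4490 CPM against 612 and 1491 in the other JU libraries, and its 10 neuron markers to 3818 against 9908 and 8746 CPM. Microglia markers summed to 486 to 543 CPM in sham, 1610 to 3500 in vehicle, 548 to 1456 in JA and 664 to 1080 in UA. All listed markers of neurons, astrocytes and oligodendrocytes were detected in every group. In bulk tissue, fewer cells of a type and less RNA per cell cannot be told apart. Vehicle and JU libraries also shared lower levels of GC-poor genes. Over the 10% of genes with the lowest transcript GC content, a library's median log2 difference from the average library was -0.19 to -0.104 in these 6 libraries and 0.0323 to 0.165 in the other 9.

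Per transcript length, the members covered a wide range in sham brains. Cyp46a1 stood highest at 88.0 ± 2.15 FPKM (SD, n = 3), followed by Nr1h2 at 21.8 ± 0.6, Slco1a4 at 11 ± 1.14 and Cyp7b1 at 6.92 ± 0.36 FPKM. Cyp27a1, at 1.27 to 2.21 FPKM, and Nr1h3, at 1.24 to 1.59 FPKM, overlapped between libraries. S1pr2 followed at 0.566 to 1.02 FPKM and Ch25h at 0.0757 to 0.417 FPKM. Gpbar1 averaged 0.0523 FPKM and Nr1h4 0.0474 FPKM, both near or under the floor of detection. In vehicle libraries Ch25h reached 12 to 31.4 FPKM, a range that spans the 24.2 to 25.4 FPKM of Nr1h2 in the same libraries.

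Of the 10 members, 8 passed the filter on low counts and were tested among 15125 genes. After occlusion, 0 of these 8 passed the edgeR threshold (adjusted p under 0.05), against 5.02% of all genes tested. At an unadjusted p under 0.05 there were 3, namely Ch25h, Slco1a4 and Nr1h2, against 29.3% of all genes. DESeq2 called 2, Ch25h and Slco1a4, against 15.9% of the genes it tested, and limma voom and limma on FPKM called 0. The 3 vehicle libraries did not overlap the 3 sham libraries for 6 of the 8, against 49.2% of all genes. Higher were S1pr2, Ch25h, Nr1h2 and Nr1h3 (24.5% of all genes were) and lower Slco1a4 and Cyp7b1 (24.7%). Without JU replicate 1 edgeR called 4, namely Ch25h, S1pr2 and Nr1h3 higher and Slco1a4 lower, against 33.9% of all genes. Both counts of calls are near what these shares of all genes would give for 8 genes.

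Between JA and vehicle, 1 of 8 members passed the edgeR threshold, against 1.56% of all genes. It was Slco1a4, which rose, as did 1.49% of all genes. The groups did not overlap for 3 members, against 33.3% of all genes. Between UA and vehicle, 0 of 8 passed in edgeR, against 3.47% of all genes, with 4 at an unadjusted p under 0.05, against 24.3%. DESeq2 called Cyp7b1 and Slco1a4 there, against 10.4% of the genes it tested, while limma voom and limma on FPKM called 0. UA and vehicle did not overlap for 4 members, against 43.9% of all genes. Without JU replicate 1, edgeR called Slco1a4 and S1pr2 between JA and vehicle (19% of all genes) and Slco1a4, S1pr2, Cyp7b1 and Nr1h3 between UA and vehicle (28.2%).

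Between JU and vehicle, 0 of 8 members passed in edgeR, with 0 at an unadjusted p under 0.05 and 0 in DESeq2, limma voom or limma on FPKM, and 0.0% of all genes passed. JU and vehicle did not overlap for 1 member, Slco1a4, which was higher in JU, against 4.23% of all genes either way and 2.35% higher. Between UA and JA, 0 of 8 passed with any of these tools and 0 at an unadjusted p under 0.05, again with 0.0% of all genes called by edgeR. Cyp46a1 and Nr1h2 were lower in all UA libraries than in all JA libraries, against 5.16% of all genes in that direction and 9.32% in either. A departure of JU from additivity (on the log2 scale, the JU difference from vehicle less the JA and UA differences) was called for 4 of 8 members, against 20.8% of all genes. Slco1a4 and Cyp7b1 lay below the sum (11% of all genes did) and S1pr2 and Nr1h2 above it (9.72%). Without JU replicate 1 the count was 2, Slco1a4 and Cyp7b1, against 19.5% of all genes. For the departure DESeq2 called Slco1a4, S1pr2, Cyp7b1, Ch25h, Nr1h2 and Nr1h3, against 29.5% of the genes it tested. This contrast and those against vehicle share the vehicle libraries.

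**Figure D1:**
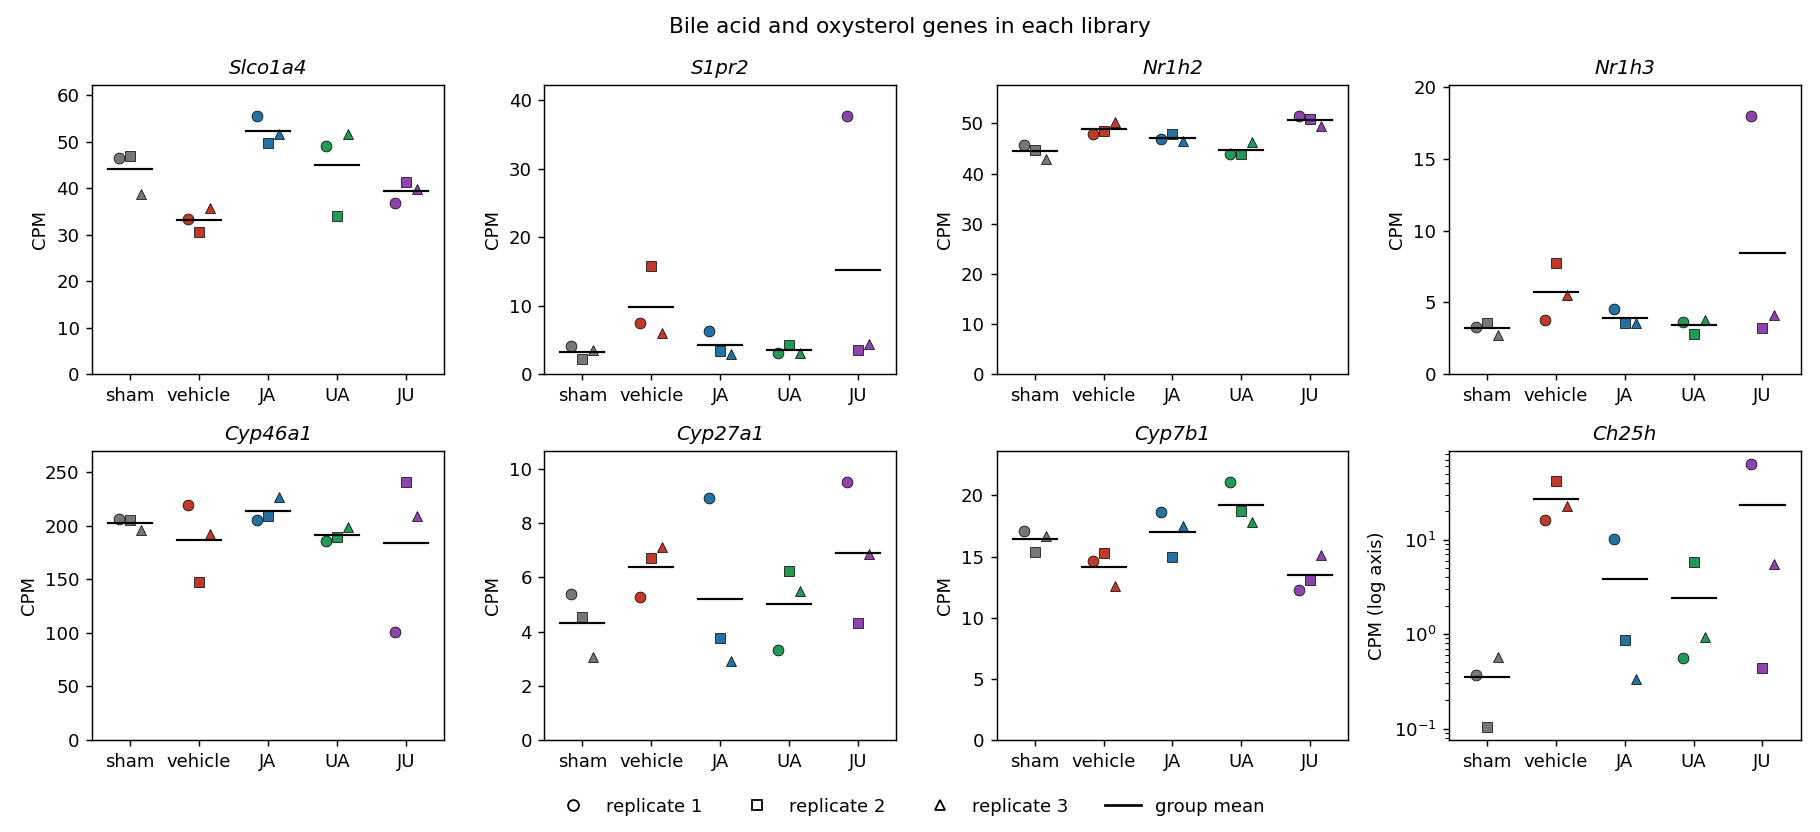
Level of the 8 tested members in each of the 15 libraries, in CPM (linear axes from 0, with a log axis for Ch25h), by group, with points for the 3 replicates and a line at the group mean. Ch25h, S1pr2 and Nr1h3 are highest in JU replicate 1, at 63.1, 37.7 and 18 CPM, while Nr1h2 stays between 43.0 and 51.5 CPM in all libraries.

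Slco1a4 (Entrez 28250; chromosome 6, 141805440 to 141856199, minus strand) encodes a carrier of bile acids and other organic anions in brain endothelium. Its level was 46.5, 46.9 and 38.8 CPM in sham replicates 1 to 3 and 33.4, 30.7 and 35.7 CPM in vehicle. It was 55.6, 49.8 and 51.7 CPM in JA, 49.1, 34.0 and 51.7 in UA and 36.8, 41.4 and 39.9 in JU. Every vehicle library lay below every sham, JA and JU library, whereas UA replicate 2 fell inside the vehicle range. Between JA and vehicle Slco1a4 rose by 0.65 ± 0.14 (SE) on the log2 scale, 1.57-fold (edgeR adjusted p = 0.0411). DESeq2 gave adjusted p = 0.00122 and the edgeR fit without JU replicate 1 gave adjusted p = 0.00873.

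That call did not hold in every fit. With any 1 of the 3 JA or 3 vehicle libraries left out, the fold change was 0.6 to 0.71 and the edgeR adjusted p was 0.0824 (without vehicle replicate 3) to 0.184 (without vehicle replicate 2). With only the groups compared in the fit, the edgeR adjusted p was 0.127. Slco1a4 has a low transcript GC content, 40.3%, within the lowest 10% of genes (up to 41.4%). With each library's trend on GC content removed, its fold change between JA and vehicle was 0.52 ± 0.17 and the edgeR adjusted p was 0.375, where 0 genes in all were called. The removal also moved the median of all genes in that contrast, to 0.12. Relative to that median Slco1a4 differed by 0.4.

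In the other contrasts Slco1a4 was 0.41 ± 0.14 lower in vehicle than in sham on the log2 scale (edgeR adjusted p = 0.0916) and 0.43 ± 0.14 higher in UA than in vehicle (edgeR adjusted p = 0.106). Without JU replicate 1 both passed, with edgeR adjusted p = 0.0301 and 0.028. Without UA replicate 2, the low UA library, the difference between UA and vehicle was 0.61 ± 0.1 (edgeR adjusted p = 0.0472). JU exceeded vehicle by 0.24 ± 0.14 (edgeR adjusted p = 1.0). The mean log2 levels correspond to 33.3 CPM in vehicle, 52.4 in JA and 44.3 in UA, from which additivity gives 69.7 CPM, while JU stood at 39.4 CPM. That departure was -0.85 ± 0.19 on the log2 scale (edgeR adjusted p = 0.0165) and -0.81 ± 0.2 without JU replicate 1 (edgeR adjusted p = 0.0154). It was -0.53 ± 0.24 with the GC trend removed (edgeR adjusted p = 0.155), and -0.34 relative to the median of all genes in that fit (-0.19).

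The 10 endothelial markers (Cldn5, Pecam1 and others) summed to 369.7 to 393 CPM in sham, 379 to 527 in vehicle, 367 to 446 in JA, 351 to 409 in UA and 398 to 765 in JU. The order of this sum differed from that of Slco1a4, whose lowest group was vehicle. Single markers varied, with 8 higher and 2 lower in vehicle than in sham, and 3 higher and 7 lower in JA than in vehicle. Flt1 was lowest in vehicle and highest in JA, averaging 73.1 CPM in sham, 67.0 in vehicle and 79.7 in JA. The part of endothelial content in the level of Slco1a4 was not tested. In edgeR 0 of the 10 passed between vehicle and sham (5.02% of all genes), with 0 at an unadjusted p under 0.05 (29.3%). Between JA and vehicle 0 passed (1.56%), with 1, Flt1, at an unadjusted p under 0.05 (18.8%). For the departure of JU from additivity 3 passed, all above additivity, against 9.72% of all genes. The related Slco1a genes took few counts, with 158 for Slco1a5, 11 for Slco1a1 and 4 for Slco1a6 over all libraries against 12427 for Slco1a4. More distant genes took more, with 717 to 2057 counts per library for Slco1c1, 360 to 1912 for Slco2b1 and 620 to 901 for Slco3a1. Slco1c1 was also lowest in vehicle, averaging 94.7 CPM in sham, 60.1 in vehicle and 88.1 in JA. Slco2b1 was highest there (22.9, 64.4 and 29.5 CPM), and Slco3a1 differed little (38.9, 39.5 and 37.3 CPM).

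**Figure D2:**
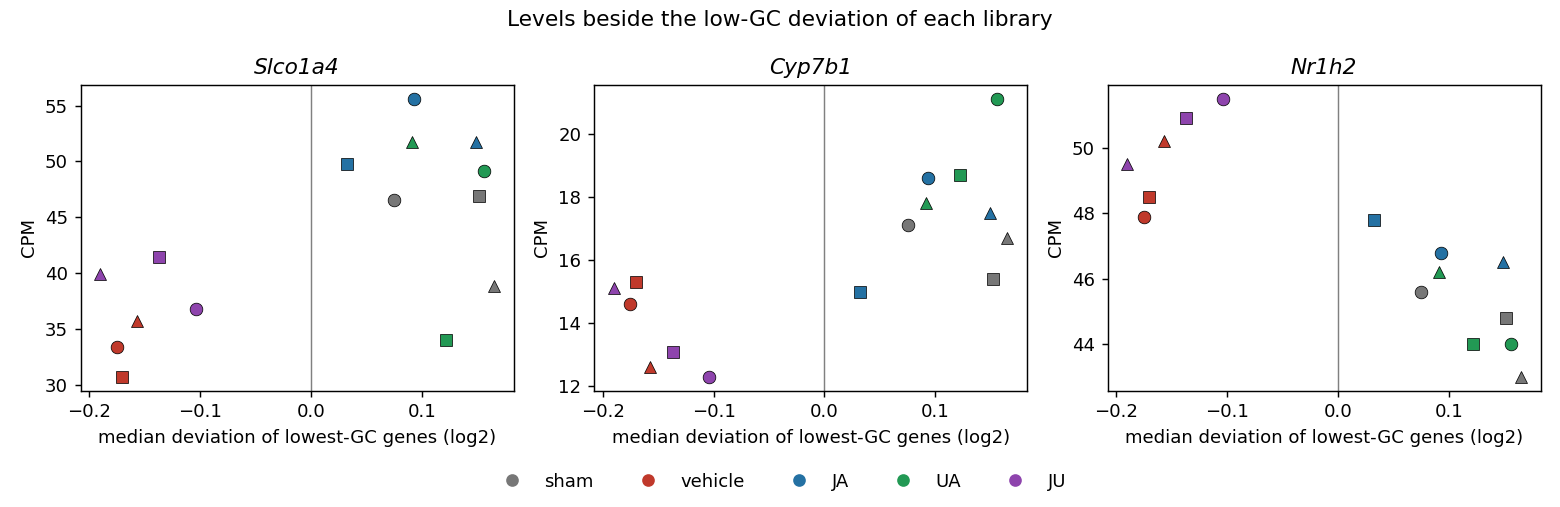
Level of Slco1a4, Cyp7b1 and Nr1h2 (CPM) against the median log2 deviation of the 10% of genes with the lowest GC content, 1 point per library, coloured by group with the marker shapes of replicates 1 to 3 as circle, square and triangle. The vehicle and JU libraries lie left of 0 and the sham, JA and UA libraries right of 0, and Nr1h2 is at 47.9 CPM or more in every library left of 0 and at 47.8 or less in every library right of it. The share of all genes that split in this way was not counted.

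Gpbar1 (Entrez 227289; chromosome 1, 74278550 to 74279624, plus strand), the membrane receptor of bile acids also known as TGR5, was close to undetected. It had 1 count in each sham library, 1 in vehicle replicate 2, 2 in UA replicate 3 and 2 in JU replicate 1, and 0 in the other 9 libraries. All libraries thus lay under the floor of 3 counts, and a difference was not detectable at this depth. Nr1h4 (Entrez 20186; chromosome 10, 89454234 to 89533585, minus strand), the farnesoid X receptor, had 3, 1 and 3 counts in sham and 1, 13 and 0 in vehicle. It had 2, 7 and 1 in JA, 4, 2 and 3 in UA and 14, 4 and 4 in JU. Most libraries were at or near the floor, with the highest values in JU replicate 1 and vehicle replicate 2. Neither receptor passed the filter on low counts, and without that filter neither was called in any contrast (smallest edgeR adjusted p = 0.499).

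S1pr2 (Entrez 14739; chromosome 9, 20962361 to 20976781, minus strand) encodes a receptor for sphingosine phosphate that conjugated bile acids also activate. It stood at 4.05, 2.24 and 3.55 CPM in sham and at 7.52, 15.8 and 5.97 in vehicle. The other groups had 6.24, 3.39 and 2.98 CPM in JA, 3.1, 4.3 and 3.02 in UA and 37.7, 3.55 and 4.44 in JU. All vehicle libraries exceeded all sham and UA libraries, JA replicate 1 fell within the vehicle range, and JU replicate 1 exceeded every other library. Vehicle exceeded sham by 1.57 ± 0.76 on the log2 scale, 2.98-fold (edgeR adjusted p = 0.186). JA was 1.21 ± 0.75 below vehicle (edgeR adjusted p = 0.367) and UA was 1.49 ± 0.76 below it (edgeR adjusted p = 0.238).

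These 3 S1pr2 differences passed the edgeR threshold without JU replicate 1. That library is in none of the 3 contrasts, and leaving it out lowered the SE through the shared spread, with the fold changes nearly unchanged. The difference between vehicle and sham was then 1.57 ± 0.38 (adjusted p = 0.00893), that between JA and vehicle -1.21 ± 0.38 (adjusted p = 0.0422) and that between UA and vehicle -1.48 ± 0.38 (adjusted p = 0.0154). JU differed from vehicle by 0.64 ± 0.73 with all libraries and by -1.28 ± 0.43 without JU replicate 1, neither of them called (edgeR adjusted p = 1.0 and 0.186). With all libraries limma on FPKM gave -0.09 and voom -0.07, so the sign rested both on that library and on the tool. The departure of JU from additivity was 3.34 ± 1.07 (edgeR adjusted p = 0.0463) and 1.41 ± 0.57 without JU replicate 1 (edgeR adjusted p = 0.0956). It was called in 6 of 22 alternatives, over which the adjusted p was 0.0078 to 0.207. It lost its call in edgeR in 9 of the 12 fits without 1 library, those without JA replicate 1, JU replicate 2 or JU replicate 3 being the exceptions.

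Nr1h2 (Entrez 22260; chromosome 7, 44549616 to 44553951, minus strand), liver X receptor beta, is the widely expressed receptor for oxysterols. Its level was 45.6, 44.8 and 43.0 CPM in sham, 47.9, 48.5 and 50.2 in vehicle and 46.8, 47.8 and 46.5 in JA. UA libraries stood at 44.0, 44.0 and 46.2 CPM and JU libraries at 51.5, 50.9 and 49.5. All vehicle libraries lay above all sham, JA and UA libraries, and JU overlapped vehicle. The differences were small, with vehicle above sham by 0.14 ± 0.05 on the log2 scale, 1.1-fold (edgeR adjusted p = 0.13). JA was 0.06 ± 0.05 below vehicle (edgeR adjusted p = 0.563) and UA 0.13 ± 0.05 below it (edgeR adjusted p = 0.187). The departure from additivity was 0.23 ± 0.08 (edgeR adjusted p = 0.0496), and leaving out any 1 library of the 4 groups ended that call (adjusted p from 0.06 without JU replicate 3 to 0.119 without JA replicate 3).

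The direction of these Nr1h2 differences turned when the GC trend was removed. Nr1h2 has a GC content of 60.6%, within the highest 10% of genes (58% or more). The fold changes became -0.12 between vehicle and sham, 0.16 between JA and vehicle, 0.13 between UA and vehicle and -0.18 for the departure. The removal also moved the median of all genes in these contrasts, to -0.16, 0.12, 0.12 and -0.19. Relative to those medians, Nr1h2 differed by 0.04, 0.03, 0.01 and 0.01.

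Nr1h3 (Entrez 22259; chromosome 2, 91184061 to 91202834, minus strand), liver X receptor alpha, is the form found in macrophages and liver. Its level was 3.26, 3.54 and 2.76 CPM in sham and 3.79, 7.75 and 5.54 in vehicle. It was 4.53, 3.55 and 3.59 CPM in JA, 3.65, 2.81 and 3.79 in UA and 18, 3.22 and 4.14 in JU. Vehicle libraries all exceeded sham, although vehicle replicate 1 did so narrowly and lay within the JA range, and JU replicate 1 stood above every other library. Vehicle exceeded sham by 0.84 ± 0.52 on the log2 scale (edgeR adjusted p = 0.298), and by 0.83 ± 0.25 without JU replicate 1 (edgeR adjusted p = 0.0242). JA lay 0.55 ± 0.52 below vehicle (edgeR adjusted p = 0.548) and UA 0.74 ± 0.52 below it (edgeR adjusted p = 0.375). Without JU replicate 1 the difference between UA and vehicle was -0.73 ± 0.25 (edgeR adjusted p = 0.0464) and that between JA and vehicle -0.55 ± 0.25 (edgeR adjusted p = 0.135). JU exceeded vehicle by 0.57 ± 0.51 with all libraries and lay 0.62 below it without JU replicate 1, a change of sign that neither fit called. The departure of Nr1h3 from additivity was 1.85 ± 0.74 (edgeR adjusted p = 0.0822, DESeq2 adjusted p = 0.0463). Without JU replicate 1 that departure was 0.65 ± 0.38 (edgeR adjusted p = 0.237). The predicted gene Gm13783 overlaps 34 bases of Nr1h3 exons on the same strand.

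Cyp46a1 (Entrez 13116; chromosome 12, 108334381 to 108362234, plus strand) encodes the neuronal hydroxylase that turns cholesterol into its main exported form. Its level was 206, 205 and 196 CPM in sham, 219, 148 and 192 in vehicle and 205, 209 and 227 in JA. UA libraries had 186, 189.9 and 199 CPM, and JU libraries 101, 241 and 209. The lowest library was JU replicate 1 and the next vehicle replicate 2, and all groups overlapped vehicle. Vehicle differed from sham by -0.12 ± 0.24 on the log2 scale (edgeR adjusted p = 0.757), JA from vehicle by 0.2 ± 0.24 (edgeR adjusted p = 0.639) and UA from vehicle by 0.04 ± 0.24 (edgeR adjusted p = 0.922). Without vehicle replicate 2 the first and the last of these changed sign, to 0.01 and -0.09. The 10 neuron markers summed to 10015 to 10187 CPM in sham, 5920 to 8373 in vehicle, 8473 to 10598 in JA and 9672 to 10180 in UA. Their lowest 2 libraries were also JU replicate 1 (3818) and vehicle replicate 2 (5920), and their part in the level of Cyp46a1 was not tested.

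Cyp27a1 (Entrez 104086; chromosome 1, 74713574 to 74737892, plus strand) encodes a mitochondrial sterol hydroxylase that begins the acidic route of bile acid synthesis. It stood at 5.37, 4.53 and 3.08 CPM in sham, 5.27, 6.72 and 7.12 in vehicle and 8.91, 3.75 and 2.93 in JA. The UA libraries had 3.32, 6.22 and 5.48 CPM and the JU libraries 9.52, 4.32 and 6.85. All groups overlapped, and JU replicate 1 and JA replicate 1 were the 2 highest libraries. Vehicle exceeded sham by 0.56 ± 0.42 (edgeR adjusted p = 0.382), JA was 0.29 ± 0.42 below vehicle (edgeR adjusted p = 0.694) and UA 0.35 ± 0.42 below it (edgeR adjusted p = 0.614). With JU replicate 1 and JA replicate 1 both left out, a fit chosen after seeing the data, the difference between JA and vehicle was -0.93 ± 0.32 (edgeR adjusted p = 0.047).

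Cyp7b1 (Entrez 13123; chromosome 3, 18071950 to 18243338, minus strand) encodes the hydroxylase that acts on oxysterols, including those from Ch25h and Cyp27a1. Its level was 17.1, 15.4 and 16.7 CPM in sham, 14.6, 15.3 and 12.6 in vehicle and 18.6, 15 and 17.5 in JA. It was 21.1, 18.7 and 17.8 CPM in UA and 12.3, 13.1 and 15.1 in JU. UA libraries were all above the sham, vehicle and JU libraries, and vehicle lay below sham in all libraries by a narrow gap. UA exceeded vehicle by 0.44 ± 0.12 on the log2 scale, 1.36-fold (edgeR adjusted p = 0.0665), which passed without JU replicate 1 (0.45 ± 0.12, edgeR adjusted p = 0.0154) and in DESeq2 (adjusted p = 0.0117). JA exceeded vehicle by 0.27 ± 0.12 (edgeR adjusted p = 0.258), and vehicle was 0.22 ± 0.12 below sham (edgeR adjusted p = 0.247).

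In JU, Cyp7b1 lay below what the single treatments add up to. The mean log2 levels correspond to 14.2 CPM in vehicle, 17.1 in JA and 19.3 in UA, from which additivity gives 23.2 CPM, and JU stood at 13.6 CPM. The departure was -0.77 ± 0.17 (edgeR adjusted p = 0.0141) and was called without any 1 of the 12 libraries in turn. With the GC trend removed it was -0.56 ± 0.19 (edgeR adjusted p = 0.119), and 1 gene in all was called in that fit. Relative to the median of all genes there (-0.19), the departure of Cyp7b1 was -0.37. Cyp7b1 has a low GC content of 42.5%, against a median of 49.9% over 15010 genes.

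Ch25h (Entrez 12642; chromosome 19, 34473778 to 34475164, minus strand) encodes a cholesterol hydroxylase that myeloid cells induce in inflammation. Its level was 0.368, 0.104 and 0.574 CPM in sham, where replicate 2 had 2 counts and lay under the floor, and 16, 41.5 and 22.5 CPM in vehicle. It was 10.2, 0.874 and 0.332 CPM in JA, 0.553, 5.73 and 0.922 in UA and 63.1, 0.437 and 5.57 in JU. All vehicle libraries exceeded all sham, JA and UA libraries, while JU covered the range from the sham level to above vehicle. Each treated group held 1 library far above its other 2, and JA replicate 3, UA replicate 1 and JU replicate 2 had 6, 10 and 8 counts, in the range of the sham libraries (2 to 11 counts). Vehicle exceeded sham by 6.23 ± 1.83 on the log2 scale, 75.1-fold, in 3 of 3 libraries (edgeR adjusted p = 0.0658; DESeq2 adjusted p = 0.000768). Without JU replicate 1 the difference was 6.22 ± 1.54 (edgeR adjusted p = 0.0127). With only the groups compared in the fit it was 6.22 ± 0.55 (edgeR adjusted p = 0.00639).

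JA and UA libraries were all lower than vehicle in Ch25h, without a call in the edgeR fit of all 15 libraries. JA differed by -2.81 ± 1.46 (edgeR adjusted p = 0.304) and UA by -3.46 ± 1.51 (edgeR adjusted p = 0.19). With only the groups compared in the fit, UA differed by -3.45 ± 0.8 (edgeR adjusted p = 0.0402) and JA by -2.8 ± 1.1 (edgeR adjusted p = 0.179). JU overlapped vehicle and differed by -0.21 ± 1.34 (edgeR adjusted p = 1.0), and by -3.12 ± 1.43 without JU replicate 1 (edgeR adjusted p = 0.232). Leaving out JA replicate 1 together with JU replicate 1, chosen after seeing the data, gave -5.44 ± 1.29 for JA (edgeR adjusted p = 0.0144) and -3.45 ± 0.92 for UA (edgeR adjusted p = 0.0197). The departure from additivity was 6.06 ± 2.09 (edgeR adjusted p = 0.0558), and 3.12 ± 1.78 without JU replicate 1 (edgeR adjusted p = 0.239). It passed without JA replicate 1, JU replicate 2 or JU replicate 3 (edgeR adjusted p = 0.0298, 0.0161 and 0.0438). The antisense gene Gm26902 overlaps 159 exon bases of Ch25h (11.5%), and the sources used here do not give the strand setting of the counting, so within that overlap reads from Ch25h and Gm26902 cannot be told apart.

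**Figure D3:**
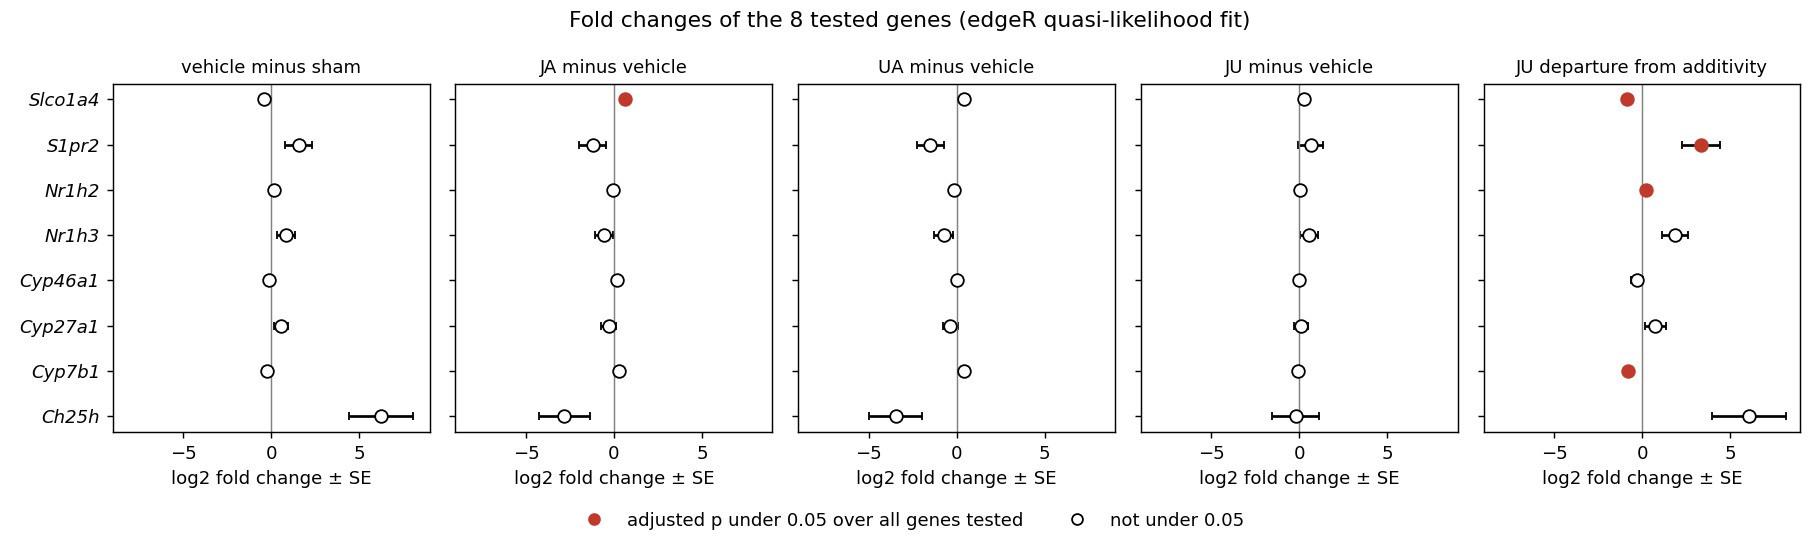
Log2 fold change ± SE of the 8 tested members in 5 contrasts of the edgeR fit, on 1 linear scale, with filled points for an adjusted p under 0.05 over all genes tested and error bars hidden where shorter than the point. Filled points are Slco1a4 between JA and vehicle (0.65) and Slco1a4, S1pr2, Nr1h2 and Cyp7b1 for the departure of JU from additivity, and Ch25h has the widest bars.

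Myeloid markers were high in several of the libraries that stood high for Ch25h, S1pr2 and Nr1h3. All 10 microglia markers (Cx3cr1, P2ry12, Tmem119 and others) were detected in every group, with a summed median of 517 CPM in sham, 2330 in vehicle, 604 in JA, 670.4 in UA and 1491 in JU. Of these 10, 5 rose between vehicle and sham in edgeR, against 0.787% of all genes, and the median log2 fold change of the 10 was 2.05. The 8 macrophage and monocyte markers summed to 36.7 to 44.3 CPM in sham, 538 to 2035 in vehicle, 41 to 533 in JA, 38.7 to 153 in UA and 42.9 to 4836 in JU. Most of the highest sums was Lyz2, at up to 1900 CPM in vehicle and 4445 CPM in JU. All 8 were higher in vehicle than in sham, by a median of 2.0 on the log2 scale (from 0.38 for Lyve1 to 5.76 for Lyz2). In edgeR 0 of the 8 passed between vehicle and sham (5.02% of all genes), with 3 at an unadjusted p under 0.05 (29.3%). Within JA both lists were highest in replicate 1, within UA in replicate 2 and within JU in replicate 1, the same libraries in which Ch25h and S1pr2 were highest. Nr1h3 was highest in those JA and JU libraries but lowest in UA replicate 2. Within vehicle both lists, Ch25h, S1pr2 and Nr1h3 were highest in replicate 2. Their part in the levels of Ch25h, S1pr2, Nr1h3 and Cyp27a1 was not tested.

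**Figure D4:**
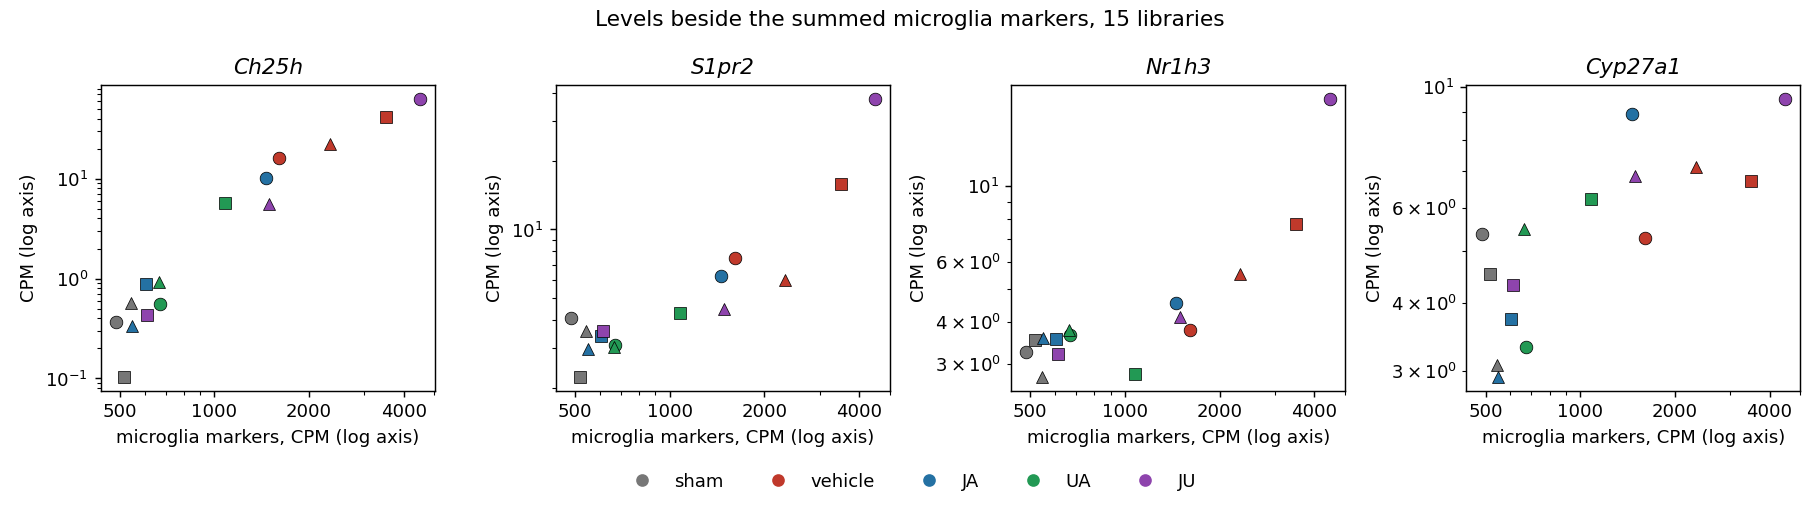
Level of Ch25h, S1pr2, Nr1h3 and Cyp27a1 (CPM, log axis) against the summed level of the 10 microglia markers (CPM, log axis), 1 point per library, coloured by group, with replicates 1 to 3 as circle, square and triangle. JU replicate 1, at 4490 CPM of markers, is highest in all 4 genes, and the sham libraries, at 486 to 543 CPM of markers, lie at the left.

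Among 13770 genes with at least 1 CPM on average, those most like each member over the 15 libraries were named by Pearson's r of log2 CPM, a description that also holds the group differences the libraries share. Ch25h was most like Trem2 (r = 0.989), Mpeg1 (0.986) and Cd84 (0.985), all receptors or pore proteins of myeloid cells. S1pr2 was most like Cd200r1 (0.99), Mr1 (0.987) and Rpn2 (0.986), and Nr1h3 most like Cemip (0.978), Trip10 (0.977) and Hic1 (0.975). Cyp46a1 was most like Baiap2 (0.989), a postsynaptic scaffold protein, Slc4a3 (0.987) and Phyhip (0.986). Genes close to Nr1h2 included Fbrsl1 (0.93) and Znfx1 (0.925). Likeness was lower for Cyp27a1, with Pilra (0.926), Ccl12 (0.901) and Apoc1 (0.888), for Slco1a4, with Zfp169 (0.878), Taf1a (0.846) and Bivm (0.843), and for Cyp7b1, with Trnt1 (0.874), Nars2 (0.872) and Tsr1 (0.869).

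Of the other genes that make bile acids, the hepatic entry enzyme Cyp7a1 and the hydroxylase Cyp8b1 had 0 to 1 counts per library. In that list 8 of 14 genes were tested. In edgeR 0 passed between vehicle and sham (5.02% of all genes), with 0 at an unadjusted p under 0.05 (29.3%) and 0 in DESeq2 (15.9%). Without JU replicate 1 edgeR called 2 (33.9% of all genes). Among 17 other bile acid transporters 8 were tested, and the hepatic uptake carrier Slc10a1 had 0 counts in all libraries. Between vehicle and sham 0 of these 8 passed in edgeR (5.02% of all genes), with 4 at an unadjusted p under 0.05 (29.3%). DESeq2 called 2 (15.9% of the genes it tested) and edgeR without JU replicate 1 called 4 (33.9%). Abcc3, an efflux pump for organic anions, averaged 1.43 ± 0.0527 CPM in sham (SD, n = 3) and 31.4 ± 24.1 in vehicle, a difference of 4.45 ± 1.35 on the log2 scale (edgeR adjusted p = 0.0717). It averaged 6.82 ± 7.19 CPM in JA, 2.84 ± 0.785 in UA and 41.5 ± 65.4 in JU. Of 18 other receptors, partners and targets of Nr1h4, 12 were tested and 0 passed in edgeR between vehicle and sham (5.02% of all genes). At an unadjusted p under 0.05 there were 4 (29.3%), with 3 in DESeq2 (15.9%) and 5 without JU replicate 1 (33.9%). Between JA or UA and vehicle, 0 genes of these 3 lists passed in edgeR with all libraries (1.56% and 3.47% of all genes).

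Downstream of the liver X receptors, all 16 listed targets were tested. Between vehicle and sham 12 of the 16 were positive, and the median was 0.82 on the log2 scale against 0.0 over all genes. In edgeR 0 passed, with 11 at an unadjusted p under 0.05 (29.3% of all genes), 5 in DESeq2 (15.9%) and 10 without JU replicate 1 (33.9%). The lipid carrier Apoe averaged 1207 ± 49.8 CPM in sham and 4993 ± 1967 in vehicle (edgeR adjusted p = 0.093). Srebf1, a regulator of fatty acid synthesis, averaged 41.7 ± 5.6 and 82.4 ± 19.6 CPM (edgeR adjusted p = 0.0716). The medians were -0.57 between JA and vehicle and -0.71 between UA and vehicle, with 12 of 16 negative in each. In edgeR 0 passed there, with 1 and 8 at an unadjusted p under 0.05 (18.8% and 24.3% of all genes), 0 and 2 in DESeq2 (7.07% and 10.4%) and 5 and 9 without JU replicate 1 (19% and 28.2%). The part of the myeloid markers, whose values are given above, in these targets was not tested.

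Gpr183, the receptor for the oxysterol that Ch25h and Cyp7b1 make together, was the only tested gene of the pathway lists to pass the edgeR threshold between vehicle and sham with all libraries. That was 1 of 63 genes, 1.59% against 5.02% of all genes. Gpr183 rose from 1.41 to 1.84 CPM in sham to 8.09 to 16.6 in vehicle (2.85 ± 0.7 on the log2 scale, edgeR adjusted p = 0.0376). The edgeR adjusted p was 0.000943 without JU replicate 1, and without any 1 of the sham or vehicle libraries it was 0.0632 to 0.157, so that each of these 6 fits lost the call. It was also lost in limma voom (adjusted p = 0.0901) and with the GC trend removed (edgeR adjusted p = 0.146). The difference was 2.81 ± 0.63 in the latter fit, where 1 gene in all was called. Gpr183 stood at 2.54 to 5.14 CPM in JA (edgeR adjusted p = 0.21 against vehicle), 2.92 to 4.2 in UA (edgeR adjusted p = 0.158) and 2.73 to 26.3 in JU. The JU range again ran from near the sham level to above vehicle. The other 18 of the 19 genes of oxysterol sensing and handling did not pass in that contrast. DESeq2 called 5 of the 19 there (15.9% of the genes it tested) and edgeR without JU replicate 1 called 13 (33.9% of all genes).

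For the departure of JU from additivity, 13 of the 63 tested genes of the pathway lists passed in edgeR, 20.6% against 20.8% of all genes, so that their share was that of the background. Among transporters Slco2b1, Abcc3 and Abcc4 were above the sum. Among receptors and partners the vitamin D receptor Vdr and the sphingosine phosphate receptor S1pr3 were above it, and the glucocorticoid receptor Nr3c1 and the muscarinic receptor Chrm2 below it. Of the targets of liver X receptors Apoe, Lpcat3 and Pltp were above, and of oxysterol handling Gpr183 and Npc2 above and Insig2 below. Slco2b1, Abcc3, Apoe and Npc2 did not pass without JU replicate 1, and 10 of 64 tested list genes did (15.6%, against 19.5% of all genes). With the GC trend removed 0 of the 13 passed, in a fit where 1 gene in all was called.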

How the data were processed

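Read counts and FPKM per gene were analysed for 15 mouse brain mRNA libraries in 5 groups of 3. The authors deposited both kinds of value in 1 table, raw counts and FPKM (fragments scaled by transcript length and library size) as its column names give them, per the file headers. Reads had been prepared with the TruSeq Stranded mRNA kit, per the labels' protocols. Trimmomatic, HISAT2, Cufflinks, DESeq and GRCm38/mm10 are named, per the submitters' processing notes (the sources used here do not say how reads were counted, with which strand setting or annotation). There was 1 value column that matched no single sample and was not used.

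The counts were fitted with edgeR 4.0.16 (TMM scaling, filterByExpr, robust quasi-likelihood test, all 15 libraries, Benjamini-Hochberg adjustment over 15125 genes, threshold 0.05) in R 4.3.3. Alternatives were DESeq2 1.42.0, limma 3.58.1 (voom, or log2(FPKM + 0.1)), RLE size factors, no filter, only the groups compared, a GC offset (a natural spline with 5 degrees of freedom on transcript GC content per library), a replicate block and fits without single libraries. The fit without JU replicate 1 and JA replicate 1 was chosen after seeing the data. The script was tested on simulated counts. The members and lists were chosen with earlier results of these data known. Named genes were the members, the 3 genes most like each by Pearson's r, and genes of the lists; not every gene the rule takes is reported. Gene positions and GC content are from GENCODE M21 (GRCm38), which matched 18524 of 18931 symbols, and upstream sequences from RefSeq. Total counts were 18346180 to 20447465, and the floor of 3 counts covers counting error only. The lowest chi-square per degree of freedom between replicates was 5.015, so no library repeats another. Same-numbered libraries of different groups did not deviate together, so the replicate numbers gave no sign of pairing, which does not exclude it.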

Additional observations from a re-analysis of the deposited data

Results flagged for a closer look

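Nr1h2 lay on opposite sides of the vehicle mean in JU and in the single treatments. All 3 JU libraries were above the vehicle mean of 48.9 CPM and all 3 JA and all 3 UA libraries below it. The share of all genes with such a pattern was not counted. For scale, JA and vehicle did not overlap for 33.3% of all genes, UA and vehicle for 43.9% and JU and vehicle for 4.23%. The JU mean exceeded the JA mean by 3.61 CPM and the UA mean by 5.87 CPM. The difference was not tested. With the GC trend removed, Nr1h2 differed from the median of all genes by 0.03 between JA and vehicle, 0.01 between UA and vehicle and 0.03 between JU and vehicle.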

How the results depend on the processing

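Counts of members past the threshold are given with the share of all genes in brackets where it was tabulated. Between vehicle and sham the count was 0 as reported (5.02%), 2 in DESeq2 (15.9%) and 3 with only the groups compared (25.5%). It was 3 with the GC offset and JU replicate 1 left out (36.0%), and 4 with JU replicate 1 and JA replicate 1 left out (35.9%). Without single libraries it was 0 to 4. Between JA and vehicle it was 1 as reported (1.56%), 4 without JU replicate 1 and JA replicate 1 (28.2%), and 0 to 2 without single libraries. It was 0 with the GC offset (0.0%), and 0 with that offset without JU replicate 1 (5.31%). It was also 0 with limma on FPKM, no filter, only the groups compared (0.0%) or the replicate block (0.0%). Between UA and vehicle it was 0 as reported (3.47%), 2 in DESeq2 (10.4%) and 2 with the GC offset without JU replicate 1 (19.4%). It was 3 with only the groups compared (14.6%), 5 without JU replicate 1 and JA replicate 1 (31.1%), and 0 to 4 without single libraries. For the departure from additivity it was 4 as reported (20.8%), 0 with the GC offset (0.00661%) and 0 with that offset without JU replicate 1 (0.00656%). DESeq2 called Slco1a4, S1pr2, Cyp7b1, Ch25h, Nr1h2 and Nr1h3 there (29.5%). The count was 2 with voom, no filter, only the groups compared (7.02%) or the replicate block (13.1%), and 2 to 5 without single libraries. Between JU and vehicle and between UA and JA it was 0 in every alternative run. Over all genes the calls ranged over the alternatives from 0 to 5487 between vehicle and sham (760 as reported), 0 to 4291 between JA and vehicle (236), 0 to 4732 between UA and vehicle (525) and 1 to 5539 for the departure (3141). The causes of these changes were not tested.

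Signs turned as follows among the members whose values are given singly. With the GC offset Nr1h2 was -0.12 between vehicle and sham, 0.16 between JA and vehicle, 0.13 between UA and vehicle and -0.18 for the departure, and without JU replicate 1 as well these were -0.12, 0.16, 0.13 and -0.19. With all libraries that offset also moved the median of all genes, relative to which Nr1h2 differed by 0.04, 0.03, 0.01 and 0.01. Without single libraries Cyp46a1 ran from -0.26 to 0.01 between vehicle and sham and from -0.09 to 0.18 between UA and vehicle, turning without vehicle replicate 2. Between JU and vehicle, Ch25h ran from -3.12 to 0.34 (positive without JU replicate 2, JU replicate 3 at 0.25 or vehicle replicate 2 at 0.26), S1pr2 from -1.28 to 1.17 and Nr1h3 from -0.62 to 0.93, the last 2 negative without JU replicate 1. S1pr2 was also -1.28 without JU replicate 1 and JA replicate 1, -1.11 with the GC offset without JU replicate 1, -0.09 in limma on FPKM and -0.07 in voom, and Nr1h3 was -0.62 and -0.49 in the first 2 of these. For differences given only as counts, the direction was kept between JU and vehicle in 10 of 16 alternatives for Cyp46a1, 12 for Cyp27a1 and 13 for Cyp7b1. Between UA and JA it was kept in 11 of 17 for Cyp27a1, 14 for Ch25h and 15 for S1pr2, and for the departure of Cyp46a1 in 20 of 22. No alternative called these differences.

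The replicate numbers gave no sign of pairing the libraries, and pairing by the bracketed numbers of the sample titles was not examined. The correlations of the deviations of same-numbered libraries ran from -0.774 to 0.748 with a median of -0.002, and 5 of 15 libraries correlated best with one of their own number. With the replicate block 0, 0, 0 and 2 members passed in the 4 contrasts above, and 383, 0, 191 and 1974 genes in all. At these depths 3 counts are about 0.15 CPM, so Gpbar1, Nr1h4 and the sham level of Ch25h are limited by depth, and with 3 libraries a group a missed threshold does not show equal levels.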
